A study of Homo sapiens with 36 samples.

Results

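The nuclear genes of the respiratory chain and of ATP synthase are described across 6 groups of mRNA libraries from 2 human intestinal cell lines, Caco-2 and HT-29, both derived from colorectal cancers. Members were all rows of the gene count table whose symbol begins with NDUFA, NDUFB, NDUFC, NDUFS, NDUFV, UQCR, COX4 to COX8 or ATP5, together with SDHA, SDHB, SDHC and SDHD, leaving out symbols with a hyphen and pseudogene symbols. This rule, which uses names and no measured value, gave 96 of 60591 rows. They comprised 37 genes of complex I, 8 complex I assembly factors (NDUFAF), 4 genes of complex II, 9 of complex III, 19 of complex IV and 19 of complex V. NDUFA4 and NDUFA4L2 were placed with complex IV, because the NDUFA4 protein, first assigned to complex I, is now known as a subunit of cytochrome c oxidase.

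The respiratory chain passes electrons from NADH (complex I) and succinate (complex II) through ubiquinone, complex III, cytochrome c and complex IV to oxygen, and ATP synthase (complex V) uses the proton gradient that complexes I, III and IV build. Most subunits are encoded in the nucleus, while the catalytic core of complexes I, III, IV and V also contains subunits encoded by mitochondrial DNA. When oxygen is short, the hypoxia-inducible factor (HIF) is known to change some of these subunits, and NDUFA4L2 and the complex IV isoform COX4I2 are textbook examples of genes it induces.

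The study asked how 2 chemical activators of the hypoxia response act on intestinal epithelial cell lines. Cells were exposed for 24 h to cobalt chloride (CoCl2, 300 µM), to an oxyquinoline derivative (OD, 5 µM) or to neither, with 3 biological replicates in each of the 6 groups. OD and control cells received DMSO at 0.5 µl per ml of medium, and the sources used here differ on whether the CoCl2 cultures did, so a difference in solvent cannot be told apart from CoCl2. Caco-2 cells had been left to differentiate for 21 days, which the labels do not state for HT-29, so cell line and culture state cannot be told apart in any comparison between the lines.

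The 18 libraries held 12925719 to 22332639 counts. Summed levels of 7 intestinal epithelial markers lay between 4650 and 4809 CPM (counts scaled to sequencing depth) in Caco-2 controls and between 5120 and 5152 CPM in HT-29 controls. The sums were higher with both agents, but single markers went both ways. VIL1 was 776 to 823 CPM in Caco-2 control and 426 to 465 with CoCl2, and 202 to 208 and 30.1 to 35.4 in HT-29. With CoCl2, CDX2 rose in Caco-2 and fell in HT-29, while EPCAM, CDH1, KRT8, KRT18 and KRT20 rose in both lines. VIL1 and CDX2 also fell with OD in HT-29. Summed enterocyte markers were 2698 to 3088 CPM in Caco-2 controls and 13.1 to 13.9 CPM in HT-29 controls. The Caco-2 sum was mostly APOA1, at 2414 to 2727 CPM in control and 3472 to 4188 with CoCl2. APOA4 also rose with CoCl2 there, while SI fell from 246 to 319 CPM in control to 94.2 to 131, and ALPI fell. FABP2, at no more than 1.81 CPM in those controls, overlapped between the groups. The sums behaved as follows. With CoCl2 the enterocyte sums were 3683 to 4370 CPM in Caco-2 and 8.31 to 9.13 CPM in HT-29, and with OD 2767 to 3022 and 7.92 to 8.96 CPM. The part of these markers in the results was not tested. The 6 markers of blood, endothelial and stromal cells summed to at most 38.8 CPM in any library. CPM used TMM scaling (trimmed mean of M values) within a line, and the scaling factors moved with treatment, from a mean of 1.12 in control to 0.894 with CoCl2 in Caco-2 and from 1.19 to 0.770 in HT-29. The scaling therefore touches every direction, those of the markers above included. Without it, on library size alone, the all-gene median on the log2 scale moved by -0.32 and -0.63 for CoCl2 against control in Caco-2 and HT-29, and by -0.15 and -0.14 for OD. The markers and their sums were read under TMM alone, so marker rises smaller than these shifts may turn on library size. KRT18 in HT-29, at 1396 to 1533 CPM in control and 1539 to 1721 with CoCl2, is an example. For the members, counts with library-size scaling are given beside the TMM counts. The number of members above the median of all genes, which does not rest on the scaling, is given too. In bulk RNA, fewer cells of a type and less RNA per cell cannot be told apart.

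Promoter sequences were available in the RefSeq promoter table (GRCh38.p14) for 77 of the 96 members. Motifs were searched on both strands in the 250 bases before the RefSeq start of each promoter. CGCATGCG is the core of the site of NRF1, a transcription factor of nuclear respiratory genes, and CCGGAAGT an ETS site of the kind bound by GABP. The other motifs were ACGTG and GCGTG, both cores of the hypoxia response element. CGCATGCG reads the same on both strands, ACGTG read on both strands overlaps itself in CACGTG, and GCGTG can share its first bases with the end of CGCATGCG. CGCATGCG was found in 9 member promoters (11.7%), against 1.86% of all 27305 promoters. CCGGAAGT was found in 10 (13.0%), against 3.64%. ACGTG was in 16 (20.8% against 18.7%) and GCGTG in 38 (49.4% against 31.9%). The median GC content was 60.8% in member promoters and 58.0% in all. A match is a description of the sequence, not a bound site. The 250 bases before the RefSeq start are shown for 4 members with large responses, NDUFV2 (chr18:9102449-9102698, plus strand) and NDUFB4 (chr3:120596086-120596335, plus strand), which were higher with CoCl2 in HT-29, and SDHD (chr11:112086623-112086872, plus strand) and ATP5MC1 (chr17:48892537-48892786, plus strand), which were lower with CoCl2 in Caco-2. The 4 are examples and not the largest changes. NDUFAB1 rose more than NDUFB4 with CoCl2 in HT-29, and NDUFAF3 fell more than SDHD with CoCl2 in Caco-2. The windows of NDUFAB1 and NDUFAF3 held none of the motifs. NDUFA4, NDUFA4L2, NDUFB9 and NDUFC2 were among the members without an entry. A link between motifs and responses was not tested. Capitals mark matches to any of the motifs, on either strand.
NDUFV2: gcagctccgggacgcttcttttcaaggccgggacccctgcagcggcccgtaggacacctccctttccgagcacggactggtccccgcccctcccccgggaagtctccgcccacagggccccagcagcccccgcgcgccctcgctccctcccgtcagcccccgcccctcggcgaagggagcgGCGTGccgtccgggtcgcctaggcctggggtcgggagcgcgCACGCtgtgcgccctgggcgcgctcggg
NDUFB4: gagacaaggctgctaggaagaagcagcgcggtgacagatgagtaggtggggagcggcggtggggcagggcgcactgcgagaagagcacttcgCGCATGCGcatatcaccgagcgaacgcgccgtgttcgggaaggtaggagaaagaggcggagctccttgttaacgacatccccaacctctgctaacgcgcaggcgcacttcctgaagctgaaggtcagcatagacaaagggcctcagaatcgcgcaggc
SDHD: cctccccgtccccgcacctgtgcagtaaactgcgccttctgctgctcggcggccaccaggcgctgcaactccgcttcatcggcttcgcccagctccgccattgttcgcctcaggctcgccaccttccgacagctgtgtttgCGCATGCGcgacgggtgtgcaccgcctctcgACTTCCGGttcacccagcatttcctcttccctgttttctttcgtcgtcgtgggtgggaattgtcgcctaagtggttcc
ATP5MC1: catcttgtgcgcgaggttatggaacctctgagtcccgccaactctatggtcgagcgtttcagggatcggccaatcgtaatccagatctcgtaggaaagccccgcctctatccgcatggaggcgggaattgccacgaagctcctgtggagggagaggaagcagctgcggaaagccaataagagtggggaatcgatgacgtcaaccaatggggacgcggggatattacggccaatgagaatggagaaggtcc

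Counting from the start backwards, the CGCATGCG match lay 158 to 151 bases before it in NDUFB4 and 109 to 102 bases before it in SDHD. SDHD also held CCGGAAGT on the minus strand at 78 to 71 bases. NDUFV2 held GCGTG at 69 to 65 bases on the plus strand and at 28 to 24 bases on the minus strand. The ATP5MC1 window held none of the 4 motifs.

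Of the 96 members, 87 passed the filter on low counts in Caco-2 and 89 in HT-29. NDUFA7, COX4I2, COX6A2, COX7A1, COX7B2, COX8C and ATP5MGL passed in neither line, with at most 15 counts in any Caco-2 library and 9 in any HT-29 library. Most of these complex IV genes are tissue-restricted isoforms of muscle, lung or testis. NDUFA7 belongs to complex I, and another gene on the same strand covers 32.5% of its exon bases, so the assignment of its reads is uncertain. COX6B2, a testis isoform, and NDUFA4L2 passed only in HT-29. COX6B2 did so through the OD libraries, where it was high. It stays in the member counts below for HT-29 and for both lines together, unless left out by name. COX4I2 had 0 counts in every library except 1 HT-29 control with 1 count.

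Levels were compared between genes per length, as RPKM (reads per kilobase of gene, scaled to sequencing depth), from the deposited log2 values, which listed 87 members in Caco-2 and 88 in HT-29. The median control level was 31.7 RPKM in Caco-2 and 22.4 RPKM in HT-29. ATP5F1B, the catalytic beta subunit of ATP synthase, stood first in both lines, with 300.2 RPKM in Caco-2 and 249 RPKM in HT-29. Complex IV had the highest median level of the complexes, at 67.3 RPKM in Caco-2 and 44.3 RPKM in HT-29, and complex I stood at 21.3 and 15.7 RPKM. Assembly factors, which are not part of the finished enzyme, had the lowest median, at 6.49 and 6.14 RPKM. NDUFV2, an iron-sulfur subunit of the NADH-oxidising arm of complex I, was the lowest of all listed members in both lines, at 0.727 and 0.785 RPKM. Another gene on the same strand covers 28.4% of its exon bases and a pseudogene row held counts equal to 18.3% of its own. The assignment of its reads, and with it this rank, is therefore uncertain.

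**Figure D1:**
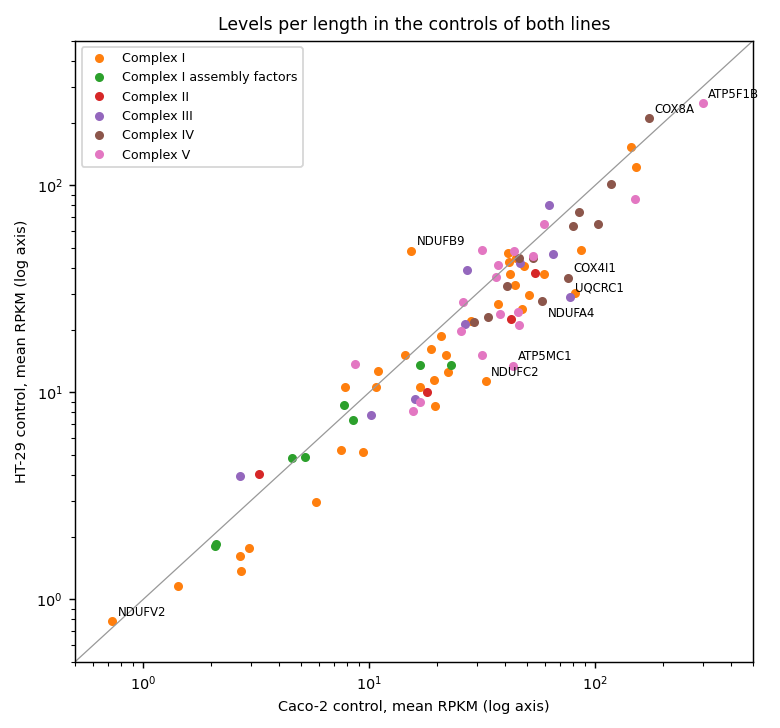
Mean control level of each member per length, in RPKM, in Caco-2 (horizontal log axis) and HT-29 (vertical log axis), 1 point per member, coloured by complex, with the line of equal level drawn. ATP5F1B sits highest and NDUFV2, whose read assignment is uncertain, lowest. NDUFB9 stands above the line and ATP5MC1 and NDUFC2 below it.

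Between the controls, 47 of 89 members were lower in HT-29 than in Caco-2 and 16 were higher at a false discovery rate (FDR) under 0.05 in edgeR's quasi-likelihood test over all 18 libraries. Of all genes tested, 39.6% were lower and 39.5% higher. The median log2 difference of the members was -0.25, against 0.00 over all genes, and the split was 48 lower and 17 higher with library-size scaling. Complex I accounted for 21 lower and 4 higher, complex V for 10 and 5, and complex IV for 7 and 3. At the study's limit, an absolute log2 difference over 1, the 8 lower members (24.2% of all genes) were ATP5MC1 (-1.60), NDUFC2 (-1.48), NDUFA8 (-1.35), UQCRC1 (-1.34), NDUFB5 (-1.11), ATP5PF (-1.04), COX4I1 (-1.01) and NDUFA4 (-1.0). NDUFB9, an accessory subunit at the far end of the membrane arm of complex I, was higher in HT-29 by 1.73. It was one of 3 members called higher past that limit (21.6% of all genes). The others, NDUFA4L2 and COX6B2, did not pass the count filter in Caco-2 and were tested through HT-29 libraries where they were high. Their calls, which are also among the 16 and the complex IV count, therefore follow from the filter and are not read as results.

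CoCl2 in HT-29 gave the widest response. In that comparison 60 of 89 tested members rose and 13 fell at an FDR under 0.05, while 40.7% of all genes tested rose and 42.2% fell. The member median was a log2 fold change of 0.28, against -0.03 over all genes, and 68 of 89 members lay above the median of all genes. With library-size scaling the split turned to 11 higher and 57 lower, with the median of all genes at -0.66 and that of the members at -0.35. The 11 that were higher under both scalings were NDUFA1, NDUFAB1, NDUFB4, NDUFB9, NDUFV2, COX4I1, COX6B1, COX6C, COX7C, NDUFA4 and NDUFA4L2. At the study's fold limit, 6 members rose and 2 fell, against 17.4% and 23.9% of all genes.

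The other comparisons with control were smaller. CoCl2 in Caco-2 raised 17 of 87 members and lowered 30, against 31.6% and 33.1% of all genes, with a member median of -0.08 and 36 members above the median of all genes; library-size scaling gave 4 higher and 61 lower. OD in Caco-2 raised 17 and lowered 15, against 25.7% and 24.7% of all genes, with 6 and 35 under library size. OD in HT-29 raised 17 of 89 and lowered 41, against 34.7% and 34.0% of all genes, with a median of -0.09 and 30 members above the median of all genes; library size gave 8 and 55. Only NDUFV2 rose past the study's fold limit with CoCl2 in Caco-2 and only ATP5MC1 fell past it, where 9.13% and 14.2% of all genes did. With OD, NDUFC2 in Caco-2 (7.27% of all genes fell past the limit) and NDUFA4L2 and NDUFV2 in HT-29 (9.50% rose past it) did so. COX6B2, which passed the count filter in HT-29 through the OD libraries where it was high, is left out of this count. It is among the 17 members that OD raised in HT-29.

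**Figure D2:**
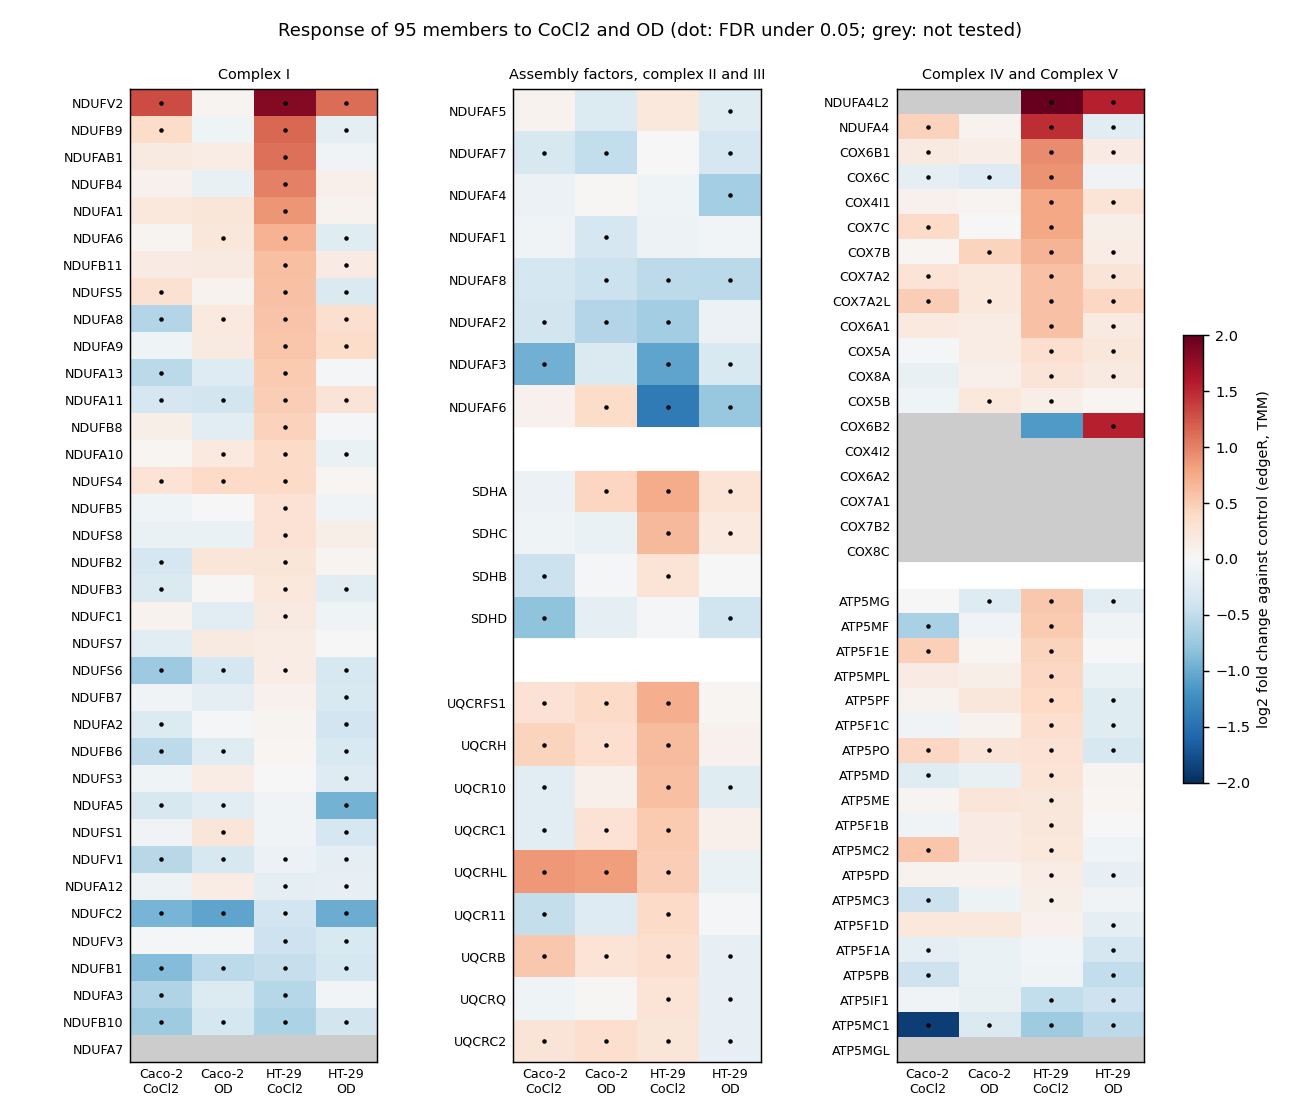
Log2 fold change against control of 95 members (rows, by complex) for both agents in both lines (columns), red for higher and blue for lower on a scale that ends at -2 and 2. A dot marks an FDR under 0.05 and grey a member not tested; the HT-29 CoCl2 column is mostly red under the TMM scaling shown, and turns to 57 lower members under library-size scaling.

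One library touches the OD values in Caco-2. The summed level of all members was 9441 CPM in OD replicate 1, above 8374 and 8129 CPM in the other replicates. Without that library, OD raised 11 members and lowered 20, and the member median moved from 0.04 to -0.07. Leaving out replicate 2 of every group lowered the Caco-2 counts most, to 29 called members for CoCl2 (47 with all replicates) and 17 for OD (32 with all).

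**Figure D3:**
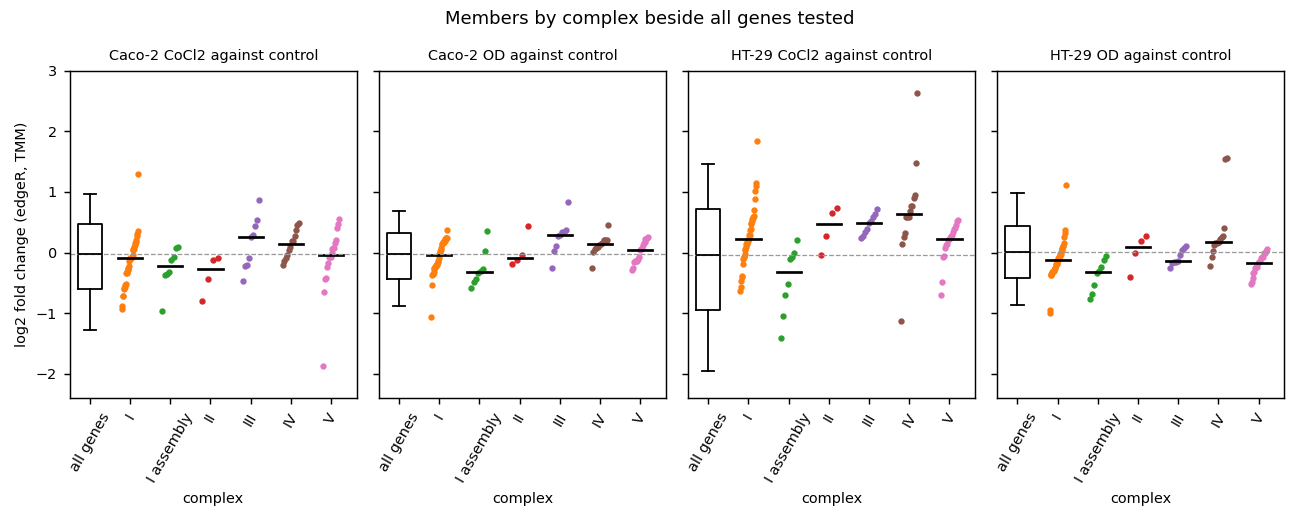
Log2 fold change against control (vertical axis, TMM scaling) for each tested member by complex, with the median as a bar, beside a box of all genes tested (median, quartiles and whiskers at percentiles 10 and 90). Complex III and IV medians lie above that of all genes in Caco-2 with both agents and in HT-29 with CoCl2, and the assembly factors lie below it in all 4 panels, positions that were the same under library-size scaling apart from the shift of all genes.

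Complex I takes electrons from NADH. CoCl2 raised 22 of 36 tested members and lowered 7 in HT-29 (5 and 23 with library size), and raised 4 and lowered 15 in Caco-2 (1 and 28). In HT-29, 27 of the 36 lay above the median of all genes, and in Caco-2 12 did. OD raised 5 and lowered 19 in HT-29 (3 and 23) and raised 5 and lowered 8 in Caco-2 (1 and 16). Of all genes, CoCl2 raised 40.7% and lowered 42.2% in HT-29 and raised 31.6% and lowered 33.1% in Caco-2. OD raised 34.7% and lowered 34.0% in HT-29 and raised 25.7% and lowered 24.7% in Caco-2. These shares, under TMM, also stand beside the counts by complex below.

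NDUFB9 levels in HT-29 were 191, 192 and 194 CPM in control, 418, 422 and 442 CPM with CoCl2 and 169, 166 and 169 CPM with OD. All CoCl2 libraries stood above, and all OD libraries below, the controls. CoCl2 raised NDUFB9 in HT-29 by a log2 fold change of 1.15 (SE 0.0440, FDR 7.61e-19, edgeR), or 2.22-fold. In Caco-2 its levels were 58.2, 63.5 and 63.8 CPM in control and 89.9, 73.7 and 75.1 CPM with CoCl2, without overlap, a log2 fold change of 0.36 (FDR 1.40e-03, edgeR) that library-size scaling brought to 0.041, not past the test.

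NDUFAB1, the mitochondrial acyl carrier protein, which is also a complex I subunit, had 66.4, 61.2 and 72.2 CPM in HT-29 controls and 144, 145 and 139 CPM with CoCl2. The groups were far apart, with a log2 fold change of 1.10 (FDR 6.64e-16, edgeR), while the OD libraries, at 59.9, 64.7 and 66.8 CPM, overlapped the controls. NDUFB4, an accessory subunit of the membrane arm whose promoter is shown above, rose from 68.1 ± 2.78 to 137 ± 5.45 CPM (SD, n = 3), a log2 fold change of 1.01 (FDR 4.54e-16, edgeR). In Caco-2 neither gene passed the test with either agent, with log2 fold changes between -0.16 and 0.17.

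NDUFV2 was higher with CoCl2 in both lines. Its Caco-2 levels were 2.79, 1.27 and 1.73 CPM in control and 4.33, 5.01 and 5.08 CPM with CoCl2, and its HT-29 levels were 2.58, 1.59 and 2.03 CPM in control, 8.66, 7.74 and 5.27 CPM with CoCl2 and 4.71, 4.25 and 4.36 CPM with OD. None of these treated groups overlapped its controls. The log2 fold changes were 1.30 (SE 0.262, FDR 1.37e-04) for CoCl2 in Caco-2, 1.83 (SE 0.184, FDR 7.70e-10) for CoCl2 in HT-29 and 1.12 (FDR 1.07e-05) for OD in HT-29, all edgeR. These rest on 19 to 116 counts per library. Another gene on the same strand covers 28.4% of the NDUFV2 exon bases, and a pseudogene row held counts equal to 18.3% of its own, so the assignment of its reads is uncertain.

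NDUFC2, an accessory subunit of the membrane arm (chr11:78068297-78079862, minus strand, GRCh38), fell in all 4 comparisons with control. Caco-2 levels were 79.7, 66.4 and 76.5 CPM in control, 34.1, 41.1 and 42.0 CPM with CoCl2 and 30.1, 37.1 and 39.8 CPM with OD. HT-29 levels were 26.6, 26.2 and 22.8 CPM in control, 17.8, 23.7 and 15.4 CPM with CoCl2 and 10.9, 12.3 and 14.6 CPM with OD. Treated and control libraries were apart everywhere except for CoCl2 in HT-29, where 1 library lay among the controls. CoCl2 and OD moved it on the log2 scale by -0.92 and -1.06 (Caco-2) and by -0.39 and -0.99 (HT-29), with edgeR FDRs from 9.25e-09 to 2.48e-03. A readthrough gene, NDUFC2-KCTD14, shares 18.6% of its exon bases.

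NDUFV1, NDUFB1 and NDUFB10 also passed the test downwards in all 4 comparisons. NDUFV1, the FMN-binding subunit that oxidises NADH, moved by -0.56 (Caco-2) and -0.11 (HT-29) when given CoCl2, and by -0.32 and -0.19 when given OD; the HT-29 value with CoCl2 (FDR 0.0464, edgeR) lost its call without replicate 2 (-0.073) or 3, and OD in Caco-2 did without replicate 2. NDUFB10, an accessory subunit of the membrane arm, stood at -0.72 and -0.35 (Caco-2) and at -0.64 and -0.36 (HT-29). NDUFS1, an iron-sulfur subunit beside NDUFV1, rose with OD in Caco-2 (0.24, FDR 5.78e-03, edgeR, a call lost without replicate 2 and under library size, where the value was 0.090) and fell with OD in HT-29 (-0.34, FDR 7.64e-07, edgeR). With CoCl2 it stood at -0.06 (Caco-2) and -0.07 (HT-29) on the log2 scale, neither past the test, though library size gave -0.39 and -0.71, both past it.

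The assembly factors help build complex I and are not part of it. No assembly factor rose with CoCl2 in either line, while 3 of 8 fell in Caco-2 and 4 of 8 in HT-29. Of all genes, CoCl2 raised 31.6% and lowered 33.1% in Caco-2 and raised 40.7% and lowered 42.2% in HT-29. The numbers that fell with CoCl2 thus lie near the shares of all genes. With OD, 4 fell and 1 rose in Caco-2 and 6 fell in HT-29, where 24.7% and 34.0% of all genes fell. Library-size scaling gave 6 to 8 lower and 0 higher in each of the 4 comparisons, and the summed level went from 138 ± 2.42 CPM in Caco-2 control to 112 ± 1.91 with CoCl2 and 114 ± 4.25 with OD, and from 117 ± 2.32 CPM in HT-29 control to 90.4 ± 4.25 and 91.1 ± 1.48 (SD, n = 3).

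NDUFAF3, which acts early in the assembly of the ubiquinone-binding part, had 23.5, 31.1 and 30.6 CPM in Caco-2 controls and 17.9, 13.2 and 13.0 CPM with CoCl2. HT-29 levels were 24.1, 20.2 and 23.6 CPM in control and 11.1, 10.1 and 11.9 CPM with CoCl2, so the groups were apart in both lines. CoCl2 lowered it by -0.96 (FDR 2.65e-06) in Caco-2 and by -1.05 (FDR 5.38e-11) in HT-29 on the log2 scale in edgeR.

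NDUFAF6 differed between the lines. Its levels were 13.5, 13.3 and 12.7 CPM in Caco-2 control, 12.6, 13.5 and 15.8 CPM with CoCl2 and 17.4, 16.8 and 16.9 CPM with OD, and in HT-29 11.9, 12.4 and 10.2 CPM in control, 4.03, 4.22 and 4.61 CPM with CoCl2 and 6.73, 6.87 and 6.60 CPM with OD. Both agents separated HT-29 libraries from their controls downwards, and OD separated the Caco-2 libraries upwards. In HT-29 it fell by 1.41 for CoCl2 (FDR 5.50e-11) and by 0.76 for OD (FDR 5.26e-07) on the log2 scale, and OD gave 0.36 in Caco-2 (FDR 1.31e-02, not past the test with library size), all edgeR.

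Complex II oxidises succinate and is built from 4 nuclear subunits alone. CoCl2 raised 3 of them in HT-29 and lowered 2 in Caco-2, where under TMM 40.7% of all genes rose and 33.1% fell. With library size 0 rose and 2 fell in HT-29 and all 4 fell in Caco-2. SDHA, the flavoprotein, had 34.1, 35.2 and 33.5 CPM in HT-29 control, 56.7, 56.7 and 57.8 CPM with CoCl2 and 40.5, 41.5 and 42.3 CPM with OD. Each HT-29 group of SDHA stood apart from the others, with log2 fold changes of 0.74 (FDR 1.45e-12) and 0.28 (FDR 7.27e-05) in edgeR, the first 0.10 and not past the test under library size. In Caco-2 OD raised it by 0.44 (FDR 5.56e-04, edgeR), from 28.1 ± 0.843 to 38.0 ± 2.88 CPM (SD, n = 3). Rows of its pseudogenes held counts equal to 57.2% of its own, so part of its reads may have been assigned to copies.

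SDHB, the iron-sulfur subunit, moved in opposite directions with CoCl2. Its levels were 121, 121 and 130 CPM in Caco-2 control against 95.2, 89.7 and 91.8 CPM with CoCl2, and 86.0, 86.6 and 81.7 CPM in HT-29 control against 102, 99.8 and 107 CPM with CoCl2. The groups did not overlap in either line, at -0.43 (FDR 8.04e-05) in Caco-2 and 0.28 (FDR 1.59e-05) in HT-29 on the log2 scale in edgeR, though the HT-29 value was -0.35 with library-size scaling. SDHC, a membrane anchor, rose with CoCl2 in HT-29 by 0.65 (FDR 8.35e-10, edgeR), a value that library-size scaling brought to no call.

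SDHD, the other membrane anchor, had 131, 97.7 and 120 CPM in Caco-2 control, 54.5, 70.2 and 74.5 CPM with CoCl2 and 84.1, 113 and 110 CPM with OD. The CoCl2 libraries were all lower, with a log2 fold change of -0.80 (SE 0.117, FDR 2.05e-06, edgeR), and the OD libraries overlapped the controls. In HT-29 it fell with OD from 61.5 ± 3.91 to 46.5 ± 2.31 CPM (SD, n = 3), a log2 fold change of -0.40 (FDR 2.12e-05, edgeR), and stood at -0.04 with CoCl2, not past the test. Library size gave -0.67 for CoCl2 in HT-29, past it.

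Complex III passes electrons from ubiquinol to cytochrome c. All 9 of its members rose with CoCl2 in HT-29, by 0.25 to 0.72 on the log2 scale, and lay above the median of all genes, but under library-size scaling 0 were higher and 4 lower. CoCl2 in Caco-2 raised 5 and lowered 3 (1 and 4 with library size). OD raised 6 and lowered 0 in Caco-2 (3 and 1), and raised 0 and lowered 4 in HT-29 (0 and 5). Of all genes, 40.7% rose with CoCl2 in HT-29 and 31.6% in Caco-2. With OD, 25.7% rose in Caco-2 and 34.0% fell in HT-29.

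UQCRFS1, the Rieske iron-sulfur protein, had 80.8, 80.0 and 80.2 CPM in Caco-2 control, 96.9, 99.7 and 97.5 CPM with CoCl2 and 116, 102 and 95.4 CPM with OD. In HT-29 it had 59.8, 67.3 and 65.7 CPM in control, 105, 108 and 106 CPM with CoCl2 and 67.4, 63.4 and 67.4 CPM with OD. OD in HT-29 was the one group that overlapped its controls. CoCl2 and OD moved it on the log2 scale by 0.29 and 0.38 (Caco-2) and by 0.72 and 0.04 (HT-29), the first 3 past the edgeR test. With library-size scaling the CoCl2 values were -0.033 in Caco-2 and 0.090 in HT-29, neither past it. UQCRC1, a core protein, fell with CoCl2 in Caco-2 (-0.22, not past the test without replicate 2 or 3) and rose with OD there (0.28, and 0.13 without a call under library size) and with CoCl2 in HT-29 (0.53, and -0.10 with library size). UQCRHL, a retrocopy of UQCRH, rose in Caco-2 by 0.87 (CoCl2) and 0.83 (OD), and its reads cannot be fully told apart from those of UQCRH, which rose by 0.44 and 0.33.

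Complex IV reduces oxygen. CoCl2 raised 13 of 14 tested members in HT-29 (6 higher and 4 lower with library size), and 13 lay above the median of all genes. In Caco-2 it raised 5 of 12 and lowered 1 (1 and 6 with library size). OD raised 10 of 14 in HT-29 and lowered 1 (4 and 2 with library size), and raised 3 of 12 in Caco-2 and lowered 1 (1 and 1). The 10 and the 14 include COX6B2, which passed the count filter through the OD libraries. Of all genes, CoCl2 raised 40.7% in HT-29 and 31.6% in Caco-2, and OD raised 34.7% and 25.7%. The summed level of complex IV in HT-29 went from 1240 ± 54.6 CPM in control to 2128 ± 28.2 with CoCl2 and 1431 ± 26.1 with OD (SD, n = 3), without overlap between the groups under TMM. As a share of raw counts it was 0.148% ± 0.00665, 0.164% ± 0.00289 and 0.155% ± 0.00406. On that measure the CoCl2 libraries stayed above the controls and the OD libraries overlapped them.

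NDUFA4L2 (chr12:57234903-57240715, minus strand, GRCh38) had 17.2, 21.6 and 17.6 CPM in HT-29 control, 122, 112 and 114 CPM with CoCl2 and 56.1, 51.8 and 56.7 CPM with OD. The 3 groups were fully apart, in the order control, OD, CoCl2. CoCl2 raised it by 2.63 on the log2 scale (SE 0.0687, FDR 1.88e-22, edgeR), or 6.18-fold, and OD by 1.55 (SE 0.0709, FDR 1.82e-16, edgeR), or 2.93-fold. In Caco-2 it had 0, 4 and 1 counts in control, 0, 0 and 4 with CoCl2 and 1, 0 and 1 with OD, at the level of single reads, so no response was detectable at this depth.

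NDUFA4, the paralog of NDUFA4L2 (chr7:10931943-10940153, minus strand, GRCh38), had 92.4, 83.3 and 102 CPM in HT-29 control, 254, 257 and 261 CPM with CoCl2 and 81.7, 78.3 and 78.6 CPM with OD. CoCl2 libraries were all higher and OD libraries all lower than the controls. The log2 fold changes were 1.47 (SE 0.0572, FDR 1.16e-18) and -0.22 (FDR 1.53e-03) in edgeR. In Caco-2 it had 189, 203 and 203 CPM in control, 258, 263 and 295 CPM with CoCl2 and 249, 201 and 176 CPM with OD. Its Caco-2 CoCl2 libraries stood above the controls (0.46, FDR 1.53e-04, edgeR, and 0.14 without a call under library size) and its OD libraries spread across them (0.07, FDR 0.526, edgeR). Thus in HT-29 both paralogs rose with CoCl2, and with OD NDUFA4L2 rose while NDUFA4 fell. That fall of NDUFA4 was as small as -0.13 with a replicate left out, and its call was not kept in every setting.

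**Figure D4:**
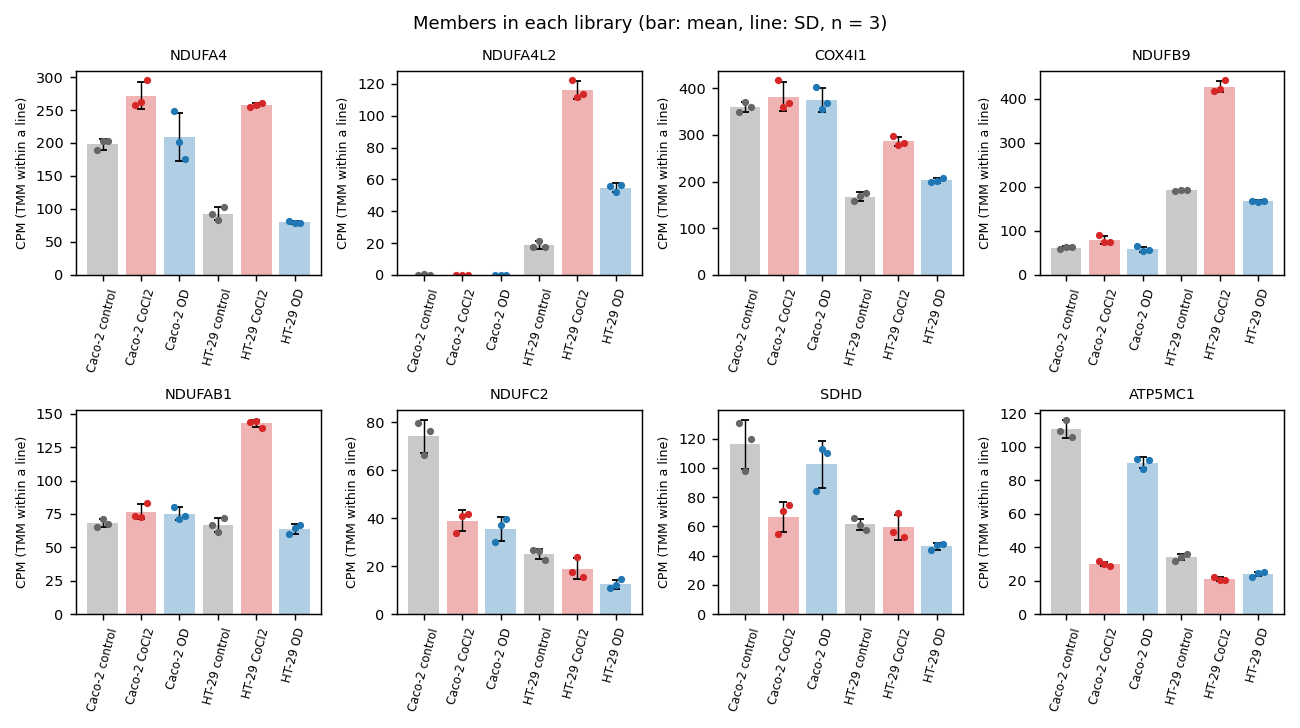
Level of 8 members in each library, in CPM scaled within a line (vertical axes start at 0), with points for libraries, bars for group means and lines for SD (n = 3). NDUFA4L2 is near 0 in all Caco-2 groups and rises from 18.8 to 116 CPM with CoCl2 in HT-29, and ATP5MC1 falls from 111 to 30.1 CPM with CoCl2 in Caco-2; both directions were the same under library-size scaling.

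COX4I1, the common isoform of subunit 4, had 157, 168 and 176 CPM in HT-29 control, 298, 279 and 283 CPM with CoCl2 and 199, 202 and 208 CPM with OD. The groups were apart, with log2 fold changes of 0.77 (FDR 5.47e-14) and 0.28 (FDR 1.72e-05) in edgeR. In Caco-2 its levels were 360 ± 11.2 CPM in control, 382 ± 30.6 with CoCl2 and 375 ± 25.0 with OD (SD, n = 3), and neither agent passed the test, though library size gave -0.24 for CoCl2, past it. COX7A2L, which takes part in joining complexes III and IV, rose in all 4 comparisons, with CoCl2 and OD at 0.49 and 0.20 (Caco-2) and at 0.59 and 0.41 (HT-29), although with library-size scaling CoCl2 in HT-29 gave -0.047 and OD in Caco-2 no call. COX5B, a small structural subunit, had 0.21 for OD in Caco-2, a call lost under library size (0.058) and without any 1 replicate, and 0.14 for CoCl2 in HT-29, which was -0.50 with library-size scaling. COX6B2 in HT-29 had 6, 11 and 20 counts in control and 36, 23 and 41 with OD. It passed the filter on low counts through the group where it was high, so no test of it is given, though the counts above include it.

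Complex V makes ATP. CoCl2 raised 13 of 18 tested members and lowered 2 in HT-29 (0 and 16 with library size), and 14 lay above the median of all genes. In Caco-2 it raised 3 and lowered 6 (1 and 13), and OD raised 1 and lowered 2 there (0 and 8). In HT-29 OD raised 0 and lowered 10 (0 and 16), and 2 of the 18 lay above the median of all genes. Of all genes, CoCl2 raised 40.7% and lowered 42.2% in HT-29 and raised 31.6% and lowered 33.1% in Caco-2. OD raised 25.7% and lowered 24.7% in Caco-2 and raised 34.7% and lowered 34.0% in HT-29.

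ATP5MC1 (chr17:48892765-48895871, plus strand, GRCh38) is one of 3 genes, with ATP5MC2 and ATP5MC3, for the c subunit of the proton-turned ring, and their mature proteins are identical. Its Caco-2 levels were 109, 116 and 106 CPM in control, 31.6, 29.8 and 29.0 CPM with CoCl2 and 92.9, 86.6 and 92.3 CPM with OD. Its HT-29 levels were 32.1, 34.4 and 36.0 CPM in control, 22.1, 20.3 and 20.7 CPM with CoCl2 and 22.5, 24.4 and 25.1 CPM with OD. Every treated library lay below its controls. The log2 fold changes were -1.88 (SE 0.0810, FDR 7.48e-16) with CoCl2 and -0.29 (FDR 2.65e-03) with OD in Caco-2. HT-29 gave -0.71 (FDR 9.39e-10) with CoCl2 and -0.52 (FDR 1.43e-07) with OD, all edgeR.

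ATP5MC2 moved the other way with CoCl2, rising by 0.56 (FDR 1.03e-06) in Caco-2 and 0.22 (FDR 1.55e-04) in HT-29 in edgeR, the latter -0.42 with library-size scaling. ATP5MC3 fell by 0.44 on the log2 scale in Caco-2 and rose by 0.12 in HT-29, where library size gave -0.51. The 3 genes summed to 460.4 ± 10.1 CPM in Caco-2 control, 391 ± 11.6 with CoCl2 and 443 ± 11.8 with OD, and to 271 ± 3.61, 289 ± 8.0 and 249 ± 6.54 CPM in HT-29 (SD, n = 3). These sums are under TMM. With library-size scaling all 3 genes were lower with CoCl2 than in control in HT-29, so the rise of their sum rests on TMM. The share of ATP5MC1 in that sum was 24.0% ± 0.895 in Caco-2 control and 7.71% ± 0.180 with CoCl2, and 12.6% ± 0.562 and 7.27% ± 0.197 in HT-29.

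ATP5IF1, the inhibitor that keeps ATP synthase from running in reverse, had 109, 108 and 100 CPM in HT-29 control, 74.4, 78.1 and 72.3 CPM with CoCl2 and 76.3, 78.8 and 81.1 CPM with OD. Both treated groups were below the controls, at -0.49 (FDR 1.90e-09) and -0.42 (FDR 3.90e-08) in edgeR. In Caco-2 the log2 fold changes were -0.07 and -0.14, neither past the test. Library size gave -0.39 for CoCl2 there, past it, and the OD value reached -0.32 with a replicate left out. ATP5F1A, the alpha subunit, fell with CoCl2 in Caco-2 (-0.18) and, among HT-29 comparisons, with OD (-0.34), and ATP5F1B rose with CoCl2 in HT-29 (0.23, and -0.40 with library size). For ATP5F1A with CoCl2 in HT-29, library size gave -0.69, past the test, where TMM gave no call. ATP5MF, a small membrane subunit, had 54.3 ± 3.67 CPM in Caco-2 control and 34.5 ± 0.560 with CoCl2, and 56.2 ± 4.22 CPM in HT-29 control and 81.0 ± 4.56 with CoCl2 (SD, n = 3), a rise that library-size scaling turned to -0.11 on the log2 scale.

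CoCl2 and OD were compared directly within each line, at their single doses; the comparisons with control share the control libraries, so their calls are not independent of each other. In HT-29, 70 of 89 members were higher with CoCl2 than with OD and 7 lower, against 37.1% and 40.6% of all genes, with a median difference of 0.40 against -0.07 over all genes. The 7 lower members include COX6B2, which passed the count filter through the OD libraries. Under library-size scaling 16 were higher and 42 lower, and 79 of 89 lay above the median of all genes under both scalings. Under TMM, CoCl2 stood higher for 28 of 36 genes of complex I, all 4 of complex II, all 9 of complex III, 10 of 14 of complex IV and 16 of 18 of complex V, and 3 of 8 assembly factors were higher and 3 lower, whereas library size left 7, 0, 2, 5 and 2 higher in complexes I to V and 0 assembly factors. Under library size 19 genes of complex I, 1 of complex II, 6 of complex IV, 10 of complex V and 6 assembly factors were lower. NDUFA4 differed most among the members higher with CoCl2 (log2 difference 1.69, FDR 1.50e-19, edgeR), followed by NDUFB9 (1.35) and NDUFAB1 (1.16), and all 3 were higher under both scalings. In Caco-2, 13 of 87 were higher with CoCl2 and 28 lower, against 24.4% and 25.2% of all genes, and 6 and 48 with library size. ATP5MC1 gave the most negative Caco-2 difference, -1.59 (FDR 1.27e-13, edgeR).

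The difference between the lines in the response itself was tested as an interaction over all 18 libraries. For CoCl2, 43 of 89 members responded more upwards in HT-29 and 4 more downwards, against 21.1% and 28.6% of all genes, and 74 lay above the median of all genes. Library-size scaling gave 26 and 15. Complex I held 21 of the 43 and all 4 genes of complex II were among them. NDUFA8, a complex I subunit facing the intermembrane space, had 63.5, 65.7 and 63.7 CPM in Caco-2 control and 43.0, 43.3 and 42.5 CPM with CoCl2, and 22.7, 25.0 and 23.2 CPM in HT-29 control and 33.2, 34.1 and 37.9 CPM with CoCl2. It fell without overlap in Caco-2 and rose without overlap in HT-29, though the HT-29 value was -0.065 with library-size scaling, and the interaction was 1.04 (FDR 1.00e-09, edgeR). ATP5MF (1.07, FDR 2.18e-10), ATP5MC1 (1.07, FDR 2.90e-10), COX6C (0.99, FDR 1.23e-09) and NDUFA4 (0.91, FDR 7.89e-08) were also higher by this test, and NDUFAF6 was lower (-1.62, FDR 7.37e-10). For OD, 3 members responded more upwards in HT-29 and 26 more downwards, against 20.9% and 22.0% of all genes, and 7 and 24 with library size.

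Counted by their calls in each line, 17 members rose with CoCl2 in both lines, which is all 17 that rose in Caco-2, where 75.8% of all genes that rose in Caco-2 did so. Of the 30 members that fell in Caco-2, 8 (26.7%) fell in both lines. Another 15 of the 30 (50.0%) fell in Caco-2 and rose in HT-29. Over all genes tested in both lines, 14.2% of those that fell in Caco-2 rose in HT-29 and 72.7% fell. Among them were NDUFA8, NDUFA11, NDUFB2 and NDUFS6 of complex I, SDHB of complex II, UQCR10, UQCR11 and UQCRC1 of complex III, COX6C of complex IV, and ATP5MC3 and ATP5MF of complex V. With OD, 11 members fell in both lines, 73.3% of those that fell in Caco-2 against 51.8% over all genes. COX7A2L, COX7B, NDUFA8 and SDHA rose in both, 23.5% of those that rose in Caco-2 against 52.3% over all genes. Another 7 rose in Caco-2 and fell in HT-29, or 41.2% of the 17 that rose in Caco-2, against 23.8% over all genes. Those 7 were ATP5PO, NDUFA10, NDUFA6, NDUFAF6, NDUFS1, UQCRB and UQCRC2. These counts are under TMM scaling; under library size, COX6C alone of the 15 was still higher with CoCl2 in HT-29.

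**Figure D5:**
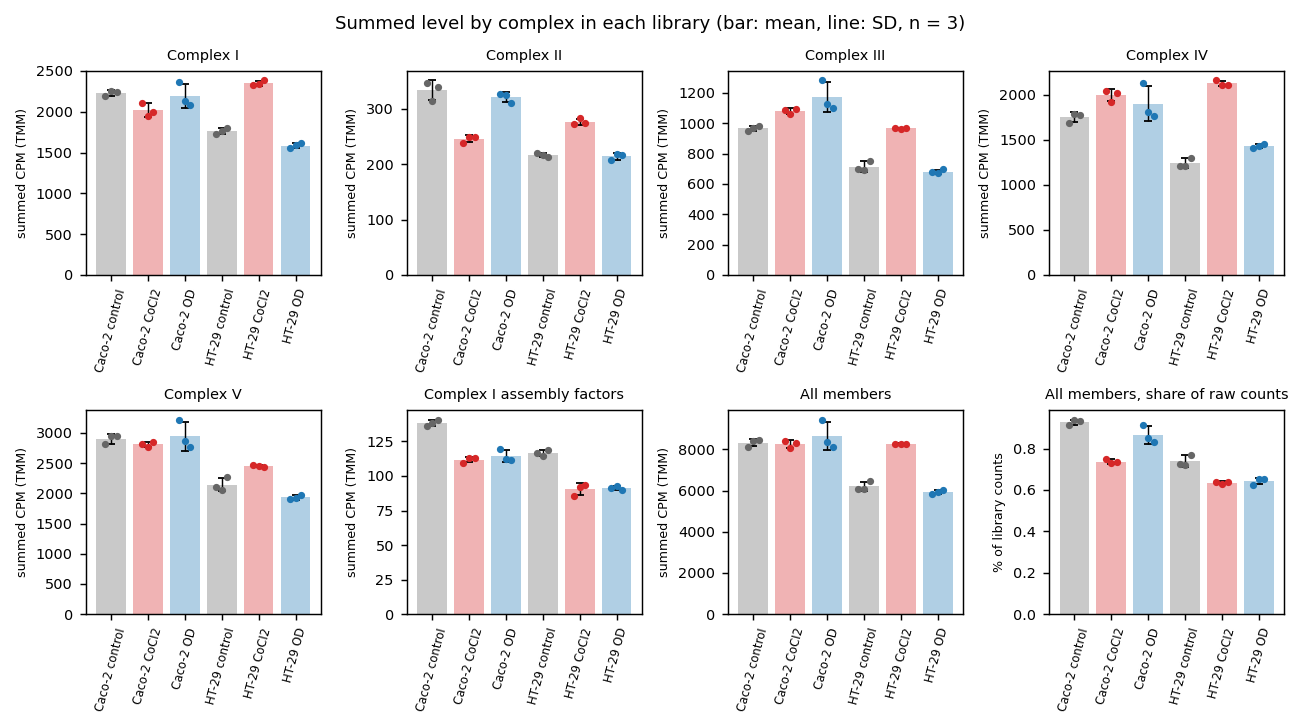
Summed level of the members of each complex in each library, in CPM scaled within a line (vertical axes start at 0), and their share of raw counts in percent in the last panel, with points for libraries, bars for group means and lines for SD (n = 3). In HT-29 the summed CPM is highest with CoCl2 in all panels of complexes I to V, while the share of raw counts in the last panel is lower with both agents than in control.

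Summed over all members, HT-29 had 6197 ± 231 CPM in control, 8265 ± 18.9 with CoCl2 and 5934 ± 105 with OD (SD, n = 3). Caco-2 had 8323 ± 177 CPM in control, 8263 ± 183 with CoCl2 and 8648 ± 697 with OD. As a share of all raw counts, the members took 0.739% ± 0.0280 in HT-29 control, 0.636% ± 0.00510 with CoCl2 and 0.644% ± 0.0161 with OD, and in Caco-2 0.927% ± 0.0130, 0.737% ± 0.0102 and 0.865% ± 0.0446. The order of control and CoCl2 in HT-29 thus turned with the scaling.

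The partner subunits encoded by mitochondrial DNA, 13 genes, moved with line and agent. CoCl2 lowered 11 of 13 in Caco-2 (median log2 fold change -0.28) and raised 12 of 13 in HT-29 (0.69), while OD lowered 12 in Caco-2 (-0.65) and 10 in HT-29 (-0.54), all under TMM. With library size the HT-29 split for CoCl2 was 3 higher and 3 lower, and the other comparisons had 11 to 13 lower and 0 higher. Respiratory genes outside the name rule, 48 listed and 47 tested, are mostly assembly factors of the complexes, with cytochrome c and its heme-binding partner CYC1. Of these, 28 fell and 3 rose with CoCl2 in Caco-2, 26 fell and 13 rose with CoCl2 in HT-29, and OD lowered 27 and 26 and raised 7 and 4; library size gave 31 to 39 lower and 2 to 5 higher. Of 20 regulators of respiratory genes, 19 of them tested in Caco-2, CoCl2 raised 12 and lowered 3 in Caco-2 and raised 8 and lowered 7 in HT-29, and OD raised 10 and lowered 1 in Caco-2 and raised 8 and lowered 8 in HT-29, while under library size CoCl2 had 6 rising against 4 falling for Caco-2, and 5 against 13 for HT-29, and OD had 6 against 1 and 8 against 8. The shares of all genes called are those given above for these comparisons. LONP1, a mitochondrial protease, rose in all 4 comparisons, with CoCl2 and OD at 0.70 and 0.47 (Caco-2) and at 1.38 and 0.62 (HT-29). TFAM, which packs and transcribes mitochondrial DNA, fell with CoCl2 in both lines (-0.36 and -0.74) and with OD in HT-29 (-1.19). HIGD1A, a complex IV-associated protein, rose in Caco-2 by 1.09 with CoCl2 and 1.06 with OD, and in HT-29 stood at 0.09 with CoCl2, not past the test (-0.54 with library size), and fell with OD (-0.18).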

How the data were processed

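The authors deposited whole-number read counts per gene and log2 values for both lines. The study's methods name cutadapt for trimming, STAR for alignment to GRCh38.p13 and a GENCODE annotation for counting; the submitters' notes give cutadapt 2.10 and STAR 2.7.5b. The counting tool and its use of strand are not given in the sources used here. The deposited log2 values were recomputed as log2 of RPKM plus 1, TMM-scaled within a line. Counts were tested with edgeR 4.0.16 in R 4.3.3 (TMM, filterByExpr, quasi-likelihood F test, two-sided, Benjamini-Hochberg over all genes), 9 libraries per line, or all 18 for the lines against each other. A gene was called at an FDR under 0.05, and also counted with the study's fold limit. Counts were also simulated with changes put into a small sample of genes. For CoCl2 in HT-29, 63.3% of changes of 0.5 and 88.5% of changes of 1 on the log2 scale were recovered, with 15227 genes tested. For CoCl2 in Caco-2 the shares were 54% and 81.6%, with 15639 genes tested. All groups otherwise shared the control levels, so the shift of scaling factors seen in the data was absent. In the data most genes passed the test with CoCl2, so these shares do not measure recovery there.

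Members and gene lists were chosen with earlier results of these data known. Named genes were a fixed list of catalytic, isoform and regulatory members, the largest changes past the fold limit (mean count at least 50) and the ends of each complex's range; others, NDUFA8, ATP5MF, NDUFB1, NDUFB4 and those listed by call among them, were named after their values were seen. Alternatives were library-size scaling, DESeq2 1.42.0 and its size factors, other count filters, a replicate block, limma 3.58.1 on the log2 values and leaving out each replicate; leaving out Caco-2 OD replicate 1 was chosen after seeing the data. Coordinates are GENCODE release 44. Protein sequences were not analysed here, and 1 member is not reported here by name. Replicates are biological per the labels.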

Additional observations from a re-analysis of the deposited data

Results flagged for a closer look

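The lines differed in their response by the interaction test (edgeR, all 18 libraries). For CoCl2, 43 members responded more upwards in HT-29 than in Caco-2 and 4 more downwards, where 21.1% and 28.6% of all genes did, and library-size scaling gave 26 and 15. NDUFAF6 (-1.62), NDUFA8 (1.04), ATP5MF (1.07) and ATP5MC1 (1.07) differed by more than 1 on the log2 scale. NDUFA4L2 also passed (2.75), but its Caco-2 libraries held 0 to 4 counts, so this fitted value depends on the prior count and bounds nothing. For OD, 3 members responded more upwards in HT-29 and 26 more downwards, where 20.9% and 22.0% of all genes did, and library-size scaling gave 7 and 24. NDUFAF6 again differed by more than 1 (-1.14), and NDUFV2, at a mean count of 46.2, did so the other way (1.06). Differences of TMM scaling factors between the lines moved with these values, and their part was not tested.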

How the results depend on the processing

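Library-size scaling reversed 13 of the named values. For CoCl2 in HT-29 these were ATP5F1B (-0.40), ATP5MG (-0.095), COX5A (-0.30), COX5B (-0.50), COX7A2 (-0.041), COX7A2L (-0.047), NDUFAF5 (-0.42), SDHB (-0.35), UQCRC1 (-0.10) and UQCRC2 (-0.39), and for CoCl2 in Caco-2 COX4I1 (-0.24), COX7A2 (-0.043) and UQCRFS1 (-0.033). The shift of all genes by -0.63 and -0.32 under that scaling is larger than the TMM values of these genes. Leaving out 1 replicate at a time gave 29 to 51 called members for CoCl2 against control in Caco-2 (47 with all), 17 to 38 for OD against control in Caco-2 (32), 24 to 45 for CoCl2 against OD in Caco-2 (41) and 31 to 51 for the interaction with CoCl2 (47), the lowest each time without replicate 2, and 67 to 70 for CoCl2 in HT-29 (73). Over all settings, 1020 named values kept their call or lack of one, 64 lost the call and 44 gained one. Values past the test neither in the main fit nor in the alternative count as kept, even where their sign changed. Replicate numbers are shared across groups, but same-numbered libraries did not deviate together (correlations from -0.055 to 0.068), and a replicate block gave 45, 28, 72 and 59 called members for CoCl2 and OD in Caco-2 and in HT-29. Low counts limit NDUFV2, COX6B2 and, in Caco-2, NDUFA4L2.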
